A study of Mus musculus with 4 samples.

Results

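The tumour necrosis factor (TNF) ligand and receptor superfamilies were examined in gamma delta intraepithelial lymphocytes, which are T cells lodged between epithelial cells of the gut. Members were taken by gene symbol from the array's annotation: symbols starting with Tnfrsf or Tnfsf, and Tnf, Lta, Ltb, Ltbr, Fas, Fasl, Cd27, Cd40, Cd40lg and Cd70. The rule uses names and no measured value, although it was written with earlier results of these data known. It gave 37 genes, read on 59 probe sets, of 18193 genes on 45101 probe sets in all. A probe set is a group of short array probes against 1 transcript. Of the 37 genes, 28 had a probe set that passed the filter on dim signals, which asked that 2 or more of the 4 arrays read it above their median. They were tested together with 12424 genes in all.

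Conventionally raised C57b/6 mice gave the cells, which were sorted from colon. The untreated group, with 2 samples, received no treatment. The DSS group, also with 2 samples, drank 2% dextran sulfate sodium (DSS), a polymer that damages the colonic epithelium, over 5 days and was sampled following 3 recovery days on plain water. Age, sex and the sort markers are not in the labels used here, and the labels do not tie the samples to separate mice, pools or sorts. The p-values therefore measure how these 4 samples scatter, and that scatter may be technical. Because these are bulk samples, fewer cells of a type and less RNA per cell cannot be told apart.

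Ligands of the TNF superfamily are mostly membrane proteins that act as trimers, and several are also released in soluble form. Their receptors fall into those with a cytoplasmic death domain, which can recruit caspase-8 through FADD, those that bind TRAF adaptor proteins and lead to NF-kB and MAP kinase signalling, and decoys that bind ligand without passing on a signal. On T cells, receptors such as 4-1BB, OX40, GITR and CD27 act as costimulators, and Fas ligand is one of the means by which cytotoxic lymphocytes kill.

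The 2 groups differed in more than their treatment. The 18 hybridisation control probe sets, which read bacterial and phage transcripts added before hybridisation, averaged 82269 and 59067 for untreated samples, against 14372 and 15271 for DSS samples. The median signal was 193.8 and 213.9 on untreated arrays against 157.1 and 163.3 on DSS arrays. Treatment and array processing cannot be told apart in this design. Of the listed markers of gamma delta intraepithelial lymphocytes, 12 of 18 were tested. On both DSS arrays 3 were higher and 4 lower, against 17.2% and 23.8% of all genes. On their tested probe sets Cd3d, Cd3g and Xcl1 were the higher ones, while Cd8a, Itgae, Ccl5 and Gzmb were lower, and Cd3e overlapped. Another kept Itgae probe set was higher on both DSS arrays, with 9780 and 9720 against 17058 and 11479. Of the other kept Cd8a probe sets, one was higher, with 4130 and 4249 against 5495 and 6097. Another was lower, with 2394 and 3690 against 2030 and 2231, and the rest overlapped. The direction for Itgae and Cd8a thus rests on the choice of probe set. The list's summed signal, most of it from Ccl5, Gzma, Gzmb and Itgae, was 493671 to 590492 in untreated and 287579 to 302950 in DSS samples. The gamma delta receptor genes of that list were not analysed here, so the marker check covers T cells of the epithelium and not gamma delta cells as such. Most tested macrophage and dendritic cell markers moved with the groups. Of 20 listed, 14 were tested, with 12 higher and 1 lower on both DSS arrays, against 17.2% and 23.8% of all genes. Their summed signal was 6352 to 12568 in untreated and 66664 to 92815 in DSS samples. C1qc and Mrc1, among the higher ones, passed the filter through the DSS arrays alone. The lower one was Zbtb46, with 461 and 243.1 in untreated samples against 242.5 and 61.0 after DSS. Itgax overlapped, with a log2 difference of -0.13. Itgam, Cx3cr1, Flt3 and Xcr1 did not pass the filter, and their groups overlapped. A rise of dendritic cell genes is thus not shown, nor one of every listed marker. The part of macrophages and dendritic cells in the results below was not tested. No marker of that list was at 0, and Csf1r had 4342 and 1162 in untreated samples. Of 11 epithelial markers 9 were tested, with 2 higher and 2 lower on both DSS arrays, against the same shares of all genes. Their summed signal was 8453 to 10495 in untreated and 12090 to 14065 in DSS samples, and the part of epithelial cells was not tested either.

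No member passed the test for a difference between DSS and untreated samples. By limma with Benjamini-Hochberg adjustment over all 12424 genes, 0 of 28 members were called, against 0% of all genes, and the smallest adjusted p among members was 0.649. At an unadjusted limma p under 0.05 there were 0 members higher (3.71% of all genes) and 1 lower (3.81% of all genes), Tnfsf4. With 2 arrays against 2, an exact two-sided permutation test of a single gene cannot go below p = 0.333. The members' median log2 difference, DSS minus untreated, was -0.09, beside -0.07 over all genes tested. All differences are on the scale of log2(signal + 32), which understates changes of dim genes.

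Counted without a test, 3 of the 28 members had both DSS arrays above both untreated ones, against 17.2% of all genes, and 8 lay lower, against 23.8%. The 3 were Fasl, Cd40 and Tnfrsf1b. The 8 were Tnfsf4, Tnfsf14, Tnfsf8, Tnfrsf9, Tnfrsf13b, Tnfrsf13c, Tnfrsf11a and Tnfsf13os. None of them was at least 2-fold higher on both DSS arrays (2.18% of all genes), and 1, Tnfsf13os, was at least 2-fold lower (2.38% of all genes). Tnfsf13os passed the filter through the untreated arrays alone, so it had to be lower. Without it 0 members were at least 2-fold lower. The split into higher and lower members depended on the scaling between arrays. After quantile normalization 6 members were higher and 4 lower, against 19% and 19.3% of all genes. After scaling to a common median 8 were higher and 4 lower, against 30.9% and 12.5% of all genes. Fasl, Cd40 and Tnfrsf1b were among the higher members under both, and Tnfsf4, Tnfsf14, Tnfrsf9 and Tnfsf13os were the 4 lower ones under both. As deposited, a second kept probe set went the other way without overlap for Tnfrsf1b (-1.14) and for Tnfrsf9 (0.39). The common median scaling moved the median of all genes from -0.07 to 0.25.

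**Figure D1:**
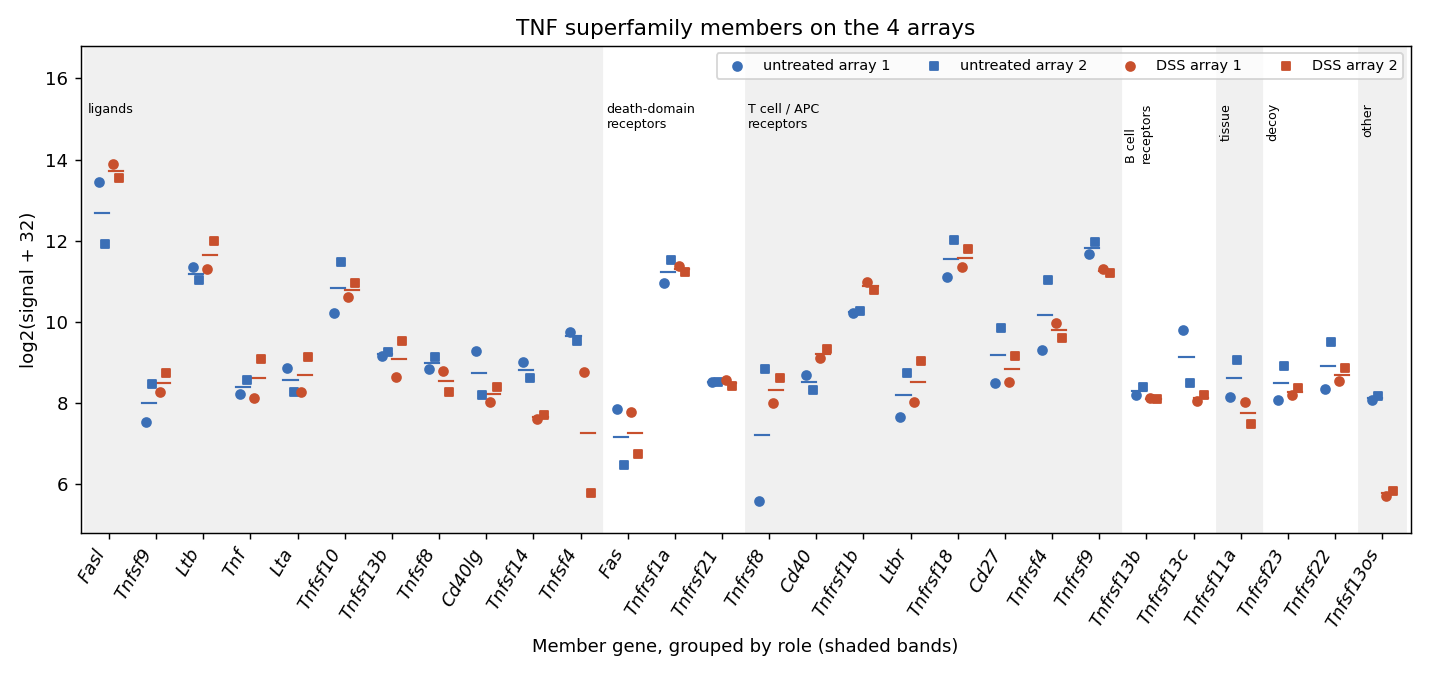
Signals of the 28 tested members on the log2(signal + 32) scale (vertical axis), with genes grouped by role along the horizontal axis; points are single arrays, blue for untreated and orange for DSS, and short lines are group means of 2 arrays. Fasl on both DSS arrays lay above both untreated arrays, at 15095 and 11924.5 against 11089 and 3875, while for most members the points of the groups interleave.

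The replicate spread set how much could be seen. Over the members, the median absolute log2 gap between the 2 untreated arrays was 0.72 and between the 2 DSS arrays 0.36, and the median absolute difference between group means was 0.42. Over all genes tested the same values were 0.68, 0.36 and 0.47. For 19 of the 28 members the gap between the untreated arrays exceeded the difference between the groups, as it did for 62.1% of all genes. For 20 members the 95% interval of the difference lay within a log2 change of 2 in either direction.

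Among the 3 members with higher signals on both DSS arrays, Fasl and Tnfrsf1b have a promoter window in the RefSeq table used here. Their 250 bases before the gene start are shown to place the genes and the motifs found in them; no binding was measured. The windows are chr1:161788496-161788745 for Fasl and chr4:145246871-145247120 for Tnfrsf1b, both on the minus strand of GRCm38.p6, written 5′ to 3′ along the gene. Capitals mark matches on either strand to GGAAA, the core read by NFAT and ETS factors, and to GGGCGG, the GC box.
Fasl: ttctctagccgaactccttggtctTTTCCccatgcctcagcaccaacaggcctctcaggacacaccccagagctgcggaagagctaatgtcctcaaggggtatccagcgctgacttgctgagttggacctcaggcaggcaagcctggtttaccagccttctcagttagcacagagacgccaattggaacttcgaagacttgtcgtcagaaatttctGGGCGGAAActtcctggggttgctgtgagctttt
Tnfrsf1b: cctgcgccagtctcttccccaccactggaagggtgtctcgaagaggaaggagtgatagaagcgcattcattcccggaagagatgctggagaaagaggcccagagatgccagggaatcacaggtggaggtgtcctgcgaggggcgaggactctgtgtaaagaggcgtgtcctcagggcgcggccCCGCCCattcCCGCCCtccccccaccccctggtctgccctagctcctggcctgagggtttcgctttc

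In the Fasl window, GGAAA matches began 226 and 30 bases before the gene start, and a GC box began 34 bases before it and overlapped the second of them. The Tnfrsf1b window held 2 GC boxes, beginning 67 and 57 bases before the start, and no GGAAA. Neither window matched the AP-1 site TGANTCA or the kappaB consensus. A promoter window was held for 28 of the 37 members, 32 windows in all. Of these windows 27 held GGAAA, 14 a GC box, 5 an AP-1 site and 4 the kappaB consensus, which is 84.4%, 43.8%, 15.6% and 12.5%. The shares among all 32851 windows of the same length were 55.6%, 32.7%, 6.75% and 7.25%. The 4 genes with the kappaB consensus were Ltb, Tnfrsf25, Tnfrsf8 and Tnfrsf9. A match describes the letters of a window and shows no use of a site.

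Of the 13 ligand genes, 11 were tested: 1 was higher and 3 were lower on both DSS arrays, against 17.2% and 23.8% of all genes, and the median log2 difference was -0.05. Fasl encodes Fas ligand, which triggers apoptosis through Fas. Its signals were 11089 and 3875 in untreated samples, against 15095 and 11924.5 after DSS. The DSS arrays were both higher, but the untreated arrays lay further from each other than the nearer pair across groups. DSS minus untreated gave a log2 difference of 1.03 ± 0.54 (SE, n = 2 in each group), with a 95% interval of -0.26 to 2.31 (limma adjusted p = 0.664). A second Fasl probe set, with 151 and 336 against 917 and 382, gave 1.27. Without untreated replicate 1 the difference was 1.78 (limma adjusted p = 0.000529), a setting in which limma called 14.4% of all genes; without untreated replicate 2 it was 0.27.

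Tnfsf4 encodes OX40 ligand, the partner of the costimulator OX40. Its signals were 834 and 714 in untreated samples, against 400.3 and 23.7 after DSS. Both DSS arrays were lower, and the second DSS array lay far below the first, under its array median of 163.3. The log2 difference was -2.37 ± 0.91 (SE, n = 2 in each group), with a 95% interval of -4.53 to -0.21 (limma adjusted p = 0.649). It was -3.85 without DSS replicate 1 and -0.89 without DSS replicate 2, so its size rests on the second DSS array.

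Tnfsf14 encodes LIGHT, which binds the herpesvirus entry mediator and the lymphotoxin beta receptor. Signals were 482 and 363 in untreated samples, against 163 and 179 after DSS. The groups did not overlap, and the DSS values lay just above their array medians of 157.1 and 163.3. DSS minus untreated gave a log2 difference of -1.15 ± 0.50 (SE, n = 2 in each group; limma adjusted p = 0.649). It ranged from -1.34 to -0.96 when each array was left out, and was -0.88 after quantile normalization. A second, dimmer Tnfsf14 probe set had signals of 11.1 to 29.3 and was not tested.

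Tnf, the founding cytokine of the family, had signals of 267 and 349 in untreated samples, against 249.96 and 509.8 after DSS. The groups overlapped, and the log2 difference was 0.21 with a 95% interval of -1.02 to 1.44. The lymphotoxin genes lie beside it in the RefSeq annotation, in the order Ltb, Tnf, Lta with no protein-coding gene between. Ltb, the membrane anchor of the lymphotoxin heterotrimer, had 2591 and 2048 against 2515 and 4027, a log2 difference of 0.46. Lta, its soluble partner, differed by 0.13. All 3 groups of values overlapped.

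The other ligands did not pass the test either. Tnfsf8 (CD30 ligand), with 429 and 532 against 412 and 278, differed by -0.46, with both DSS arrays lower as deposited. Its groups overlapped under both other scalings. Cd40lg, the CD40 ligand of helper T cells, differed by -0.52, and Tnfsf9, the ligand of 4-1BB, by 0.50. Tnfsf10 encodes TRAIL, a death receptor ligand. It had 1153 and 2830 against 1533 and 1976 and differed by -0.05 as deposited and 0.29 after common median scaling; its other kept probe sets gave -0.09 and 0.22. Tnfsf13b, the B cell survival factor BAFF, differed by -0.12 as deposited, 0.0092 with quantile normalization and 0.20 with a common median. Its second kept probe set gave -0.40.

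Tnfsf13os carries a family prefix but names a transcript on the opposite strand of the Tnfsf13 locus and encodes none of the family's proteins. Its signals were 238 and 259.5 in untreated samples, against 20.6 and 25.2 after DSS. It was the only member whose tested probe set passed the filter through 1 group alone, as 751 of all 12424 genes did. That group was the untreated one, with the higher array medians, so Tnfsf13os had to be lower on both DSS arrays. The log2 difference was -2.36 ± 1.01 (SE, n = 2 in each group; limma adjusted p = 0.649), and its other probe set, with 23.1 and 371 against 57.1 and 55.7, was not tested. Without Tnfsf13os the members' median was -0.05.

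**Figure D2:**
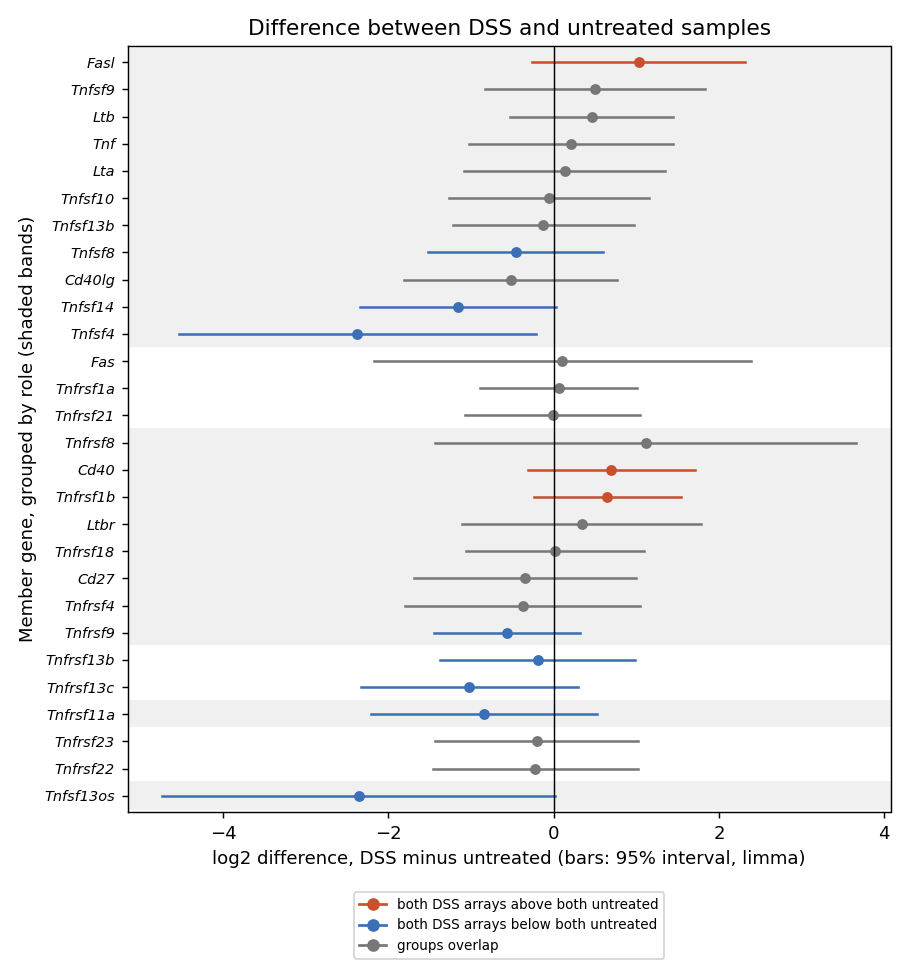
Log2 difference of each tested member, DSS minus untreated (horizontal axis), with limma's 95% interval; genes are grouped by role on the vertical axis. The interval of Tnfsf4, -4.53 to -0.21, lies below 0, and those of the other 27 members span 0.

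Death-domain receptors were measured for 3 of 5 genes, and the groups of all 3 overlapped. Fas had signals of 199 and 56.8 in untreated samples, against 187 and 76.2 after DSS. Its replicates lay further apart than its group means, and the log2 difference of 0.11 had a wide 95% interval, -2.17 to 2.39. Tnfrsf1a, the ubiquitous TNF receptor with a death domain, had 1952 and 2913 against 2615 and 2368. Its log2 difference was 0.06 as deposited and -0.06 after quantile normalization, and the 95% interval of the deposited value was -0.88 to 1.00. Tnfrsf21 (death receptor 6) differed by -0.01 as deposited and by 0.23 after quantile normalization on its tested probe set. Its second kept probe set had 19.8 and 50.7 against 163 and 273, a log2 difference of 1.90. That second probe set passed the filter through the DSS arrays alone and can bind related transcripts.

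Of 9 receptors of T cells and antigen-presenting cells that bind TRAF proteins, 8 were tested, with a median log2 difference of 0.18. On both DSS arrays 2 were higher and 1 lower, against 17.2% and 23.8% of all genes, and for one of the higher ones, Tnfrsf1b, the probe sets disagreed. Tnfrsf1b encodes TNF receptor 2, found mainly on immune cells. Its tested probe set had 1159.6 and 1200.1 in untreated samples, against 1998 and 1749 after DSS. The replicates lay close together and the groups did not overlap. DSS minus untreated gave a log2 difference of 0.65 ± 0.38 (SE, n = 2 in each group), with a 95% interval of -0.24 to 1.54 (limma adjusted p = 0.682). A second Tnfrsf1b probe set had 851 and 878 against 314 and 449 and gave -1.14, also without overlap. The 2 probe sets thus disagreed in sign, and their mean gave -0.24, so these data give no direction for Tnfrsf1b.

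Cd40 encodes a receptor of B cells, macrophages and dendritic cells. On its tested probe set the signals were 385 and 290.1 in untreated samples, against 518 and 613 after DSS. The groups did not overlap. The log2 difference was 0.70 ± 0.43 (SE, n = 2 in each group), with a 95% interval of -0.31 to 1.71 (limma adjusted p = 0.688). A second Cd40 probe set had 17.5 and 18.3 against 389 and 549, a log2 difference of 3.31. It passed the filter through the DSS arrays alone, and both kept probe sets have names that mark possible binding of related transcripts. The remaining Cd40 probe set has no such name and did not pass the filter. Its groups overlapped, with 36.5 and 121 against 275 and 82.5. The macrophage and dendritic cell markers had summed signals of 6352 to 12568 against 66664 to 92815 in the same samples. Of those tested, Zbtb46 and Itgax were not higher on both DSS arrays. Whether Cd40 signal came with macrophages or dendritic cells was not tested.

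Tnfrsf9 encodes 4-1BB (CD137), an inducible costimulator of cytotoxic T cells. Its tested probe set had 3222 and 3958 in untreated samples, against 2491 and 2327 after DSS, with no overlap. DSS minus untreated gave a log2 difference of -0.56 ± 0.37 (SE, n = 2 in each group), with a 95% interval of -1.45 to 0.32 (limma adjusted p = 0.702). A second kept probe set had 471 and 768 against 812 and 784 and gave 0.39. The mean of both was -0.09, so the direction for Tnfrsf9 rests on the choice of probe set.

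The signals of Tnfrsf18, Tnfrsf4, Cd27, Ltbr and Tnfrsf8 overlapped between groups. Tnfrsf18 (GITR) had 2170 and 4117 in untreated samples, against 2604 and 3508 after DSS, a log2 difference of 0.02 as deposited and -0.13 after quantile normalization. Tnfrsf4 (OX40), its neighbour in the genome, had 605 and 2047 against 976 and 752, a log2 difference of -0.37. The untreated arrays enclosed both DSS arrays. The sign turned with the array left out: -1.23 without untreated replicate 1 and 0.48 without untreated replicate 2. Cd27, a receptor of resting T cells, differed by -0.34, and Ltbr, the lymphotoxin beta receptor, by 0.34. Tnfrsf8 (CD30) had 15.9 and 424 against 227 and 363, so its log2 difference of 1.11 ± 1.08 (SE, n = 2 in each group) rested on the first untreated array; it was -0.51 without that array. Foxp3, the factor that defines regulatory T cells, had 27.8 and 368 against 161 and 107. Of the alpha beta and regulatory T cell markers 6 of 12 were tested. Il7r was higher and Tcra lower on both DSS arrays, against 17.2% and 23.8% of all genes. Tcra passed the filter through the untreated arrays alone, so it had to be lower. Tcra had 463 and 253 against 39.1 and 96.7, and the list's summed signal, with Il7r its largest part, was 1968 to 2894 in untreated and 2165 to 2744 in DSS samples.

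Of 3 receptors for B cell survival factors 2 were tested, and both were lower on both DSS arrays as deposited, where 23.8% of all genes were. Neither was under the other scalings: Tnfrsf13c then overlapped between groups and Tnfrsf13b was higher on both DSS arrays. Tnfrsf13c (BAFF receptor) had 856 and 329 in untreated samples, against 234 and 261 after DSS. The groups did not overlap, but the first untreated array stood apart from the second. The log2 difference was -1.02 ± 0.55 (SE, n = 2 in each group; limma adjusted p = 0.671). It was -1.67 without untreated replicate 2 (limma adjusted p = 0.0374), where 6.08% of all genes were called, and -0.37 without untreated replicate 1. Tnfrsf13b (TACI) had 263 and 307 against 246 and 245 and differed by -0.19 as deposited, but by 0.09 with quantile normalization and by 0.12 with a common median. B cell and plasma cell markers, 6 of 11 of them tested, summed to 2082 to 3076 in untreated and 2183 to 2945 in DSS samples. On both DSS arrays 1 was higher and 0 were lower, against 17.2% and 23.8% of all genes.

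Tnfrsf11a (RANK), the only 1 of 3 receptors of tissue cells that was tested, had 252 and 506 in untreated samples, against 231 and 149 after DSS. Both DSS arrays were lower, and the log2 difference was -0.84 ± 0.58 (SE, n = 2 in each group; limma adjusted p = 0.702). It ranged from -1.30 to -0.38 when each array was left out. The groups overlapped after quantile normalization, with a difference of -0.60, and after common median scaling, with -0.53. The decoy TRAIL receptors Tnfrsf22 and Tnfrsf23 lie side by side in the genome. They differed by -0.22 and -0.21 as deposited and by 0.10 and 0.11 after common median scaling, with overlapping groups.

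**Figure D3:**
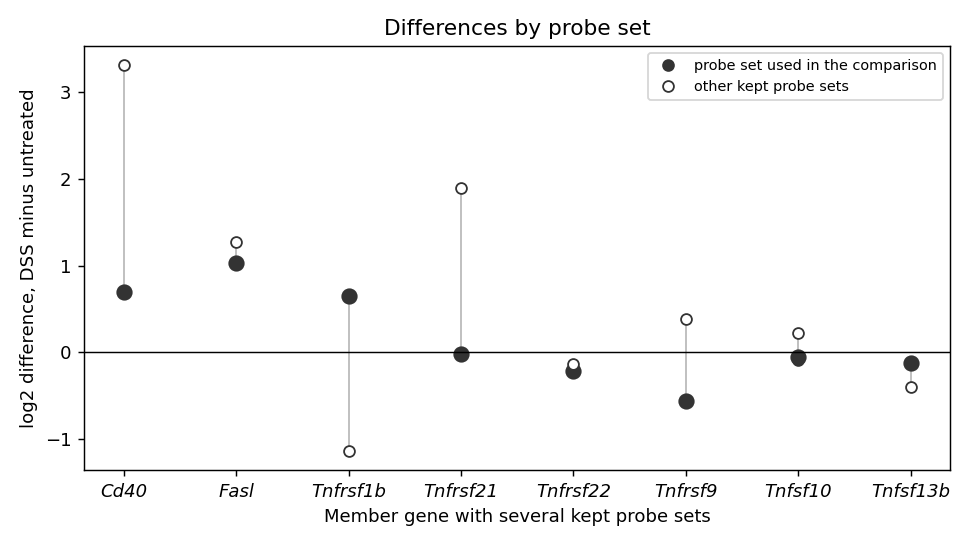
Log2 difference, DSS minus untreated (vertical axis), of every kept probe set of the 8 members with more than 1 (horizontal axis); filled points are the probe sets used in the comparison. Those of Tnfrsf1b lie at 0.65 and -1.14 and those of Tnfrsf9 at -0.56 and 0.39, on opposite sides of 0, while both Fasl probe sets lie above 0, at 1.03 and 1.27.

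Signals of 9 members did not pass the filter and were not tested. Tnfrsf14, the herpesvirus entry mediator, had 48.1 and 103 in untreated samples, against 27.0 and 64.9 after DSS, all below the array medians. Cd70, the ligand of CD27, had 21.4 to 28.1 over the 4 arrays, and Tnfrsf17, a receptor of plasma cells, 9.43 to 30.3. Both were dim on every array. The others were Tnfrsf10b (6.25 to 312), Tnfrsf11b (6.17 to 105), Tnfrsf12a (21.0 to 375), Tnfrsf19 (10.2 to 307), Tnfrsf25 (23.3 to 222) and Tnfsf11 (34.7 to 268), each over all its probe sets and arrays. These encode the TRAIL receptor, osteoprotegerin, the TWEAK receptor, TROY, death receptor 3 and RANK ligand. No detection calls were used here, so a low signal does not show that a transcript was absent.

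Set side by side as values, ligands and receptors of a pair differed in sign in some cases and not in others. Fasl differed by 1.03 and Fas by 0.11, Tnfsf4 by -2.37 and Tnfrsf4 by -0.37. Tnfsf9 differed by 0.50 and Tnfrsf9 by -0.56, and Cd40lg by -0.52 and Cd40 by 0.70. Tnfsf8 differed by -0.46 and Tnfrsf8 by 1.11, and Tnfsf13b by -0.12 and Tnfrsf13c by -1.02. In the pairs of opposite sign 1 partner turned elsewhere: Tnfrsf9 gave 0.39 on its other probe set, and without untreated replicate 1 Tnfrsf8 was at -0.51 and Cd40lg at 0.025. In the pairs of the same sign 1 partner turned too. Without untreated replicate 2 Fas was at -0.58 and Tnfrsf4 at 0.48, and Tnfsf13b was at 0.20 with a common median. Not every pairing of the superfamily is listed. No difference between the partners of a pair was tested. Tnfsf4 and Fasl have 1 protein-coding gene between them.

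Genes that carry the receptors' signal were described from a separate list of 44 adaptors, kinases, ubiquitin ligases and NF-kB components. Of these 39 were tested, limma called 0, and 2 were higher and 0 lower at an unadjusted p under 0.05, against 3.71% and 3.81% of all genes. On both DSS arrays 10 were higher and 7 lower, against 17.2% and 23.8% of all genes, with a median log2 difference of 0.28, beside -0.07 for all genes. After common median scaling the list's median was 0.61, beside 0.25. Tnfaip3 encodes A20, an enzyme that ends TNF receptor signalling. It had 5942 and 2356 in untreated samples, against 21048 and 19538 after DSS. The difference came to 2.43 ± 0.50 (SE, n = 2 in each group; limma adjusted p = 0.51). Its dimmer probe set gave -0.93. Averaging both probe sets gave 0.75 (limma adjusted p = 0.695). Limma called Tnfaip3 without untreated replicate 1 (3.09, adjusted p = 9.61e-07) and without untreated replicate 2 (1.77, adjusted p = 0.00082), settings in which 14.4% and 6.08% of all genes were called. It did not call it without DSS replicate 1 (2.37) or without DSS replicate 2 (2.48), both at an adjusted p of 1.00. With the replicate number as a block Tnfaip3 was called (limma adjusted p = 0.00959), as were 0.539% of all genes.

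The other 5 genes of the list with the smallest p did not pass adjustment with all 4 arrays. Zfp36, whose product tristetraprolin destabilises Tnf mRNA, had 624 and 561 against 1009 and 1576, which makes a log2 difference of 1.05 ± 0.42 (SE, n = 2 in each group; limma adjusted p = 0.649). Tank, a TRAF-binding regulator, differed by 0.96, while its other kept probe set gave -0.81. Adam17, the protease that releases soluble TNF, differed by 0.87, and by -0.63 and -0.77 on its other kept probe sets. Fadd, the adaptor of death receptors, had 1176 and 1125 against 532 and 725, a log2 difference of -0.85, with 0.17 on its other probe set. Sharpin, a part of the linear ubiquitin ligase, gave -0.91, and its other kept probe set -0.18. Without untreated replicate 1 limma called Sharpin (-1.37, adjusted p = 0.00538), Tank (1.33, adjusted p = 0.0158) and Adam17 (1.28, adjusted p = 0.0182), in the setting where 14.4% of all genes were called. Without untreated replicate 2 their differences were -0.46, 0.58 and 0.46. With probe sets averaged Tank was at 0.074, Fadd at -0.34 and Sharpin at -0.55, and Adam17 turned to -0.18. The macrophage and dendritic cell markers were higher in the same DSS samples, and their part in these values was not tested.

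**Figure D4:**
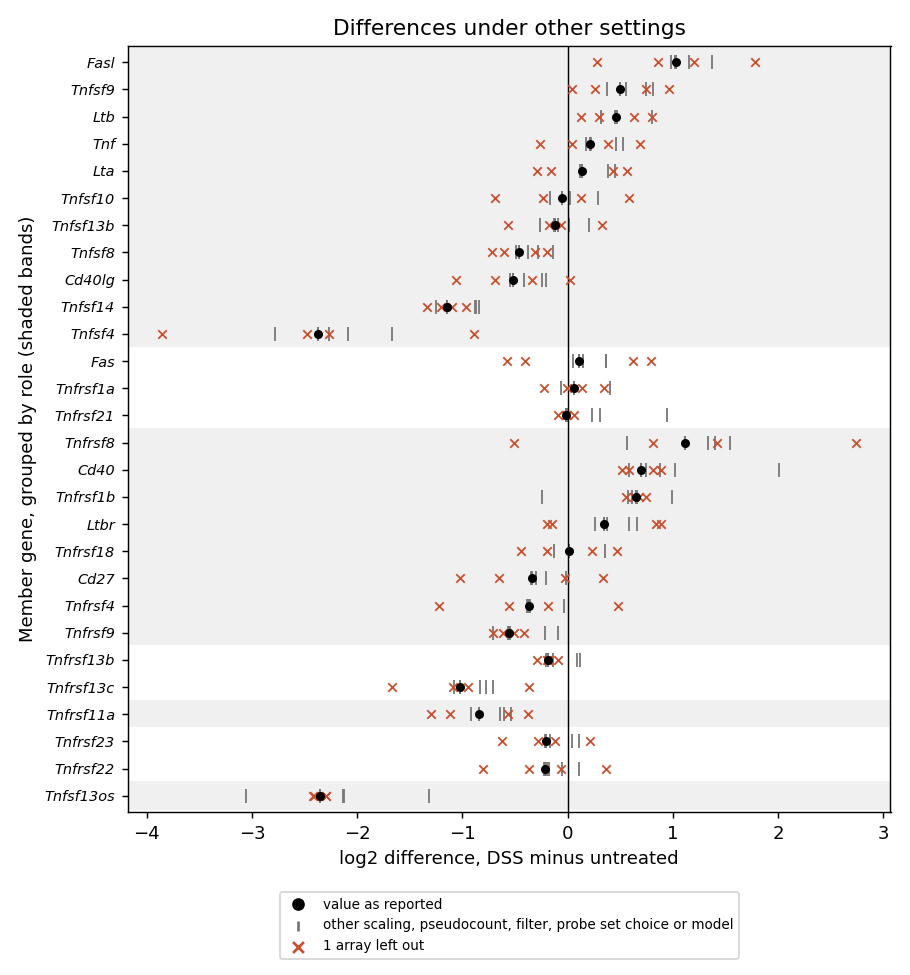
Log2 difference of each tested member (horizontal axis) as reported (black), under other scalings, pseudocounts, filters, probe set choices and models (grey bars) and with 1 array left out (orange crosses); genes are grouped by role on the vertical axis. Of the 28 members, 11 kept their sign under all 15 other settings, several of which could not move a difference. Tnfrsf8 ranged from -0.51 to 2.74.

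The sign of the difference was the same under all 15 other settings run for Fasl, Cd40, Ltb, Tnfsf9, Tnfsf4, Tnfsf14, Tnfsf8, Tnfrsf9, Tnfrsf13c, Tnfrsf11a and Tnfsf13os. For Tnfsf13os this covers 1 setting fewer, since a filter on the mean signal removed it. Its sign as reported was fixed, because it passed the filter through the untreated arrays alone. Tnfrsf9 gave 0.39 on its other kept probe set. Several of the settings had no bearing on the sign. The variance models and the replicate block could not move a difference. Other filters and the removal of _x_at and _s_at probe sets left the differences of these genes unchanged. Sizes moved elsewhere: with 1 array left out Tnfsf9 ranged from 0.040 to 0.96, Ltb from 0.12 to 0.80 and Tnfsf8 from -0.72 to -0.20. The sign of 13 members was the same with each array left out, and that of 20 members under both other scalings. Apart from the settings that left out an untreated array, limma called 0 members in each setting run.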

How the data were processed

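RNA of the sorted cells was amplified before labelling, per the labels' protocols, which can distort levels. The deposited values are linear array intensities, 1 signal per probe set and array, made by the authors with GCOS, per the submitters' processing notes; its version, like its settings, is not given in the sources used here. Each array's mean, without its lowest and highest 2%, is 500.0, so the deposited intensities had been scaled. The number of arrays limits the precision.

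Probe sets with 1 symbol in the platform table were named (34958 of 45101); 932 with several and 9211 with none were not. Signals were analysed as log2(signal + 32). Where a gene had several kept probe sets, the one of highest mean stood for it. DSS was compared with untreated by limma 3.58.1 in R 4.3.3 (lmFit, eBayes with an intensity trend, group as the only term), with Benjamini-Hochberg adjustment at 0.05 over 12424 genes. The limma step was tested on simulated data. Probe sets ending in _x_at or _s_at, 5 of the 59, can bind related transcripts. Promoter windows came from RefSeq (GRCm38.p6).

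The rule for members reads gene symbols alone, but it and the lists were chosen with earlier results of these data known. Every tested member was named; all 4 signals were given for members whose groups did not overlap with a log2 difference of at least 1, for 7 members fixed by name, and for others where a result turned on them. From the pathway list the 6 genes with the smallest p were named. Csf1r, C1qc, Mrc1, Zbtb46, Itgax, Itgam, Cx3cr1, Flt3, Xcr1, Foxp3, Tcra and Il7r were named after their values were seen. So were the markers named from the intraepithelial lymphocyte list. Other settings changed the scaling between arrays, the pseudocount, the filter, how probe sets were combined, the variance model, the adjusted p accepted and the replicate block, or dropped 1 array.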

Additional observations from a re-analysis of the deposited data

How the results depend on the processing

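Limma called 0 genes as reported, 3 with a gene's probe sets averaged, 4 at an adjusted p under 0.10 and 0 to 1791 with 1 array left out, the highest count being without untreated replicate 1; 755 were called without untreated replicate 2. With the replicate number as a block it called 67 genes and 0 members. The deviations of same-numbered samples correlated at r = 0.05 over genes, and the samples share only a number. Members called numbered 0 to 2 with 1 array left out: Fasl and Tnfrsf4 without untreated replicate 1, and Tnfrsf13c without untreated replicate 2. A lone sample was then assumed to vary like the other group.

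Members higher on both DSS arrays numbered 3 as reported, 6 after quantile normalization, 8 after common median scaling and 4 to 13 with 1 array left out. Those lower numbered 8, 4, 4 and 9 to 16. The shares of all genes moved too: 17.2%, 19%, 30.9% and 25.5 to 36.9% were higher, and 23.8%, 19.3%, 12.5% and 34.3 to 47.7% lower. The members' median moved from -0.09 to 0.24 under common median scaling and to between -0.33 and 0.25 with 1 array left out, the pathway list's from 0.28 to 0.61 and to 0.079 to 0.32, and that of all genes from -0.07 to 0.25, to 0.013 after quantile normalization and to -0.18 to -0.036 with 1 array left out.

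Signs turned after quantile normalization for Tnfrsf13b (0.090), Tnfrsf18 (-0.13), Tnfrsf1a (-0.063), Tnfrsf21 (0.23), Tnfrsf23 (0.044) and Tnfsf13b (0.0092). They turned under common median scaling for Tnfrsf13b (0.12), Tnfrsf21 (0.30), Tnfrsf22 (0.10), Tnfrsf23 (0.11), Tnfsf10 (0.29) and Tnfsf13b (0.20). With probe sets averaged they turned for Tnfrsf1b (-0.24), Tnfrsf21 (0.94), Tnfsf10 (0.026) and Adam17 (-0.18). With 1 array left out, the ranges that crossed 0 were -1.02 to 0.34 for Cd27, -1.06 to 0.025 for Cd40lg, -0.58 to 0.79 for Fas, -0.30 to 0.56 for Lta, -0.20 to 0.88 for Ltbr and -0.26 to 0.68 for Tnf. They were -0.44 to 0.47 for Tnfrsf18, -0.22 to 0.35 for Tnfrsf1a, -0.089 to 0.063 for Tnfrsf21, -0.81 to 0.37 for Tnfrsf22, -0.63 to 0.22 for Tnfrsf23, -1.23 to 0.48 for Tnfrsf4, -0.51 to 2.74 for Tnfrsf8, -0.69 to 0.58 for Tnfsf10 and -0.57 to 0.32 for Tnfsf13b. The cause was not tested. Signals near the array medians of 157.1 to 213.9 limit what the dim members can show.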
